A study of Mus musculus with 5 samples.

Results

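Estrogen receptor α (ERα) peaks that were called in the uterus after saline vehicle and had no counterpart after estradiol are described here. They were chosen by their positions: a peak of the vehicle list was a member when it shared no base pair with any peak of the estradiol list, on the autosomes. By this rule 1474 of 5137 autosomal vehicle peaks were vehicle-only, or 28.7% (95% Wilson interval 27.5 to 29.9), and the other 3663 are called shared. Both lists together held 22192 autosomal peaks, 17055 of them from the estradiol library.

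The tissue was whole uterus of wild-type C57BL/6J mice whose ovaries had been removed 10 to 14 days earlier. One group received saline by intraperitoneal injection and the other 250 ng of estradiol per mouse, and uteri were collected after 1 hour. Chromatin bound by ERα was recovered with the antibody sc-542 from sheared, formaldehyde-fixed tissue and sequenced (ChIP-seq), with 1 library per treatment. Of the 5 samples of the series, those for RNA polymerase II and the input were left aside. The labels do not say how many mice went into a library.

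ERα is a nuclear receptor that binds DNA as a dimer, typically at a palindromic estrogen response element or through other DNA-bound factors. Estradiol changes the shape of its ligand-binding domain, so that coactivators are recruited and target genes are switched on. In the uterus, where epithelium, stroma and muscle layer all hold the receptor, estradiol drives fluid uptake and then growth. Receptor without hormone is also found in the nucleus, and ChIP-seq in animals without ovaries can report sites that it occupies with little ligand present. A peak is an interval in which a caller found more reads than its background model allows, and a site without a peak can still have reads below that limit.

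The deposited lists give each peak's position and a numbered name, with no height, score or read count. Depth is therefore unknown, its part in the calls was not tested, and a vehicle-only peak is a call made in 1 library and not made in the other. With single libraries there is no replicate check and no test of any difference below, and the intervals given cover counting error only. They treat peaks as independent, which neighbouring peaks are not. Because overlap with the estradiol list chose the members, their distance to estradiol peaks is a description too. All positions are on mm9.

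The boundary of the rule was looked at from both sides. The vehicle-only peak nearest to an estradiol peak, 146 bp at chr14:34313757-34313902, abutted an estradiol peak of 344 bp with a gap of 0 bp. Next came 216 bp at chr14:69998273-69998488 and 238 bp at chr15:35707145-35707382, both with a gap of 9 bp. Each of these 3 lay beside an estradiol peak that overlapped another vehicle peak, and a shared vehicle peak was 96, 87 and 32 bp away from them. The remaining pair of closest members, 129 bp at chr17:84382857-84382985 and 142 bp at chr9:102545459-102545600, lay 15 and 18 bp from estradiol-only peaks of 615 and 225 bp. Just outside the rule, the smallest overlap was 5 bp, for a vehicle peak at chr9:40222759-40222908, followed by 15 bp on chromosome 11 and 18 bp on chromosome 6. A gap under 100 bp was found for 31 members (2.10%), and an overlap of at most 100 bp for 112 shared peaks (3.06%). Had an overlap of at least 50% of both peaks been required, 769 more peaks would have been members, 2243 in all. Of the 1474, 107 (7.26%) had an estradiol peak within 500 bp. Vehicle-only thus describes the called positions, and some members had an estradiol call close by.

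Vehicle-only peaks were the shorter part of the vehicle list. Their median length was 166 bp (95% interval of the median 162 to 169), with quartiles of 133 and 201 bp, against 230 bp (228 to 234) and quartiles of 180 and 292 bp for shared vehicle peaks. The shortest length in the list, 100 bp, was held by 91 vehicle-only peaks (6.17%, 5.06 to 7.52) and 59 shared peaks (1.61%, 1.25 to 2.07). At the other end, 27 vehicle-only peaks (1.83%, 1.26 to 2.65) reached 400 bp, against 269 shared peaks (7.34%, 6.54 to 8.23). The vehicle-only median was the lower one on 19 of 19 autosomes, where it ran from 147 to 184 bp against 218 to 240.5 bp for shared peaks. Members made up 22.4% of the base pairs of the vehicle list, or 262 kb.

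**Figure D1:**
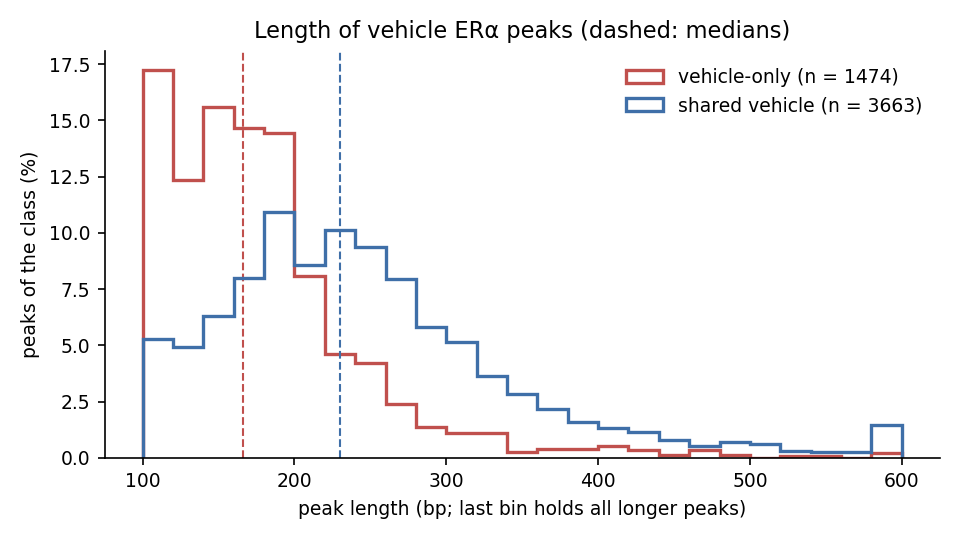
Length of the 1474 vehicle-only and 3663 shared vehicle peaks in bp (x axis) as a percentage of each class (y axis), with dashed lines at the medians of 166 and 230 bp. Vehicle-only peaks pile up near the shortest length of 100 bp, and the last bin gathers all longer peaks.

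The share of vehicle-only peaks fell with length and then levelled off over the length bins used. It was 55.5% (51.2 to 59.6) among peaks of 100 to 124 bp, 35.2% (31.8 to 38.7) at 175 to 199 bp and 10.3% (8.30 to 12.7) at 250 to 299 bp. Among peaks of 300 to 399 bp it was 7.84% (5.97 to 10.2), and among those of 400 bp or more 9.12% (6.34 to 12.9). The last bin is open, and its peaks of 500 bp or more were 5 vehicle-only and 106 shared ones. The longest peaks of the vehicle library therefore still included a few vehicle-only ones, and a level share was not shown beyond 500 bp.

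Each peak name carries a number, from 1 to 5184 in the vehicle list, whose meaning is not stated in the sources used here. Low numbers went with long peaks, with a Spearman rho of -0.77 across the 5137 autosomal vehicle peaks, given as a description. Vehicle-only peaks had mostly high numbers, with a median of 3980 against 1964 for shared peaks. The list was divided by number into 10 groups of 513 or 514 peaks. In group 1, with the lowest numbers, 1 of 514 peaks was vehicle-only, in group 2 it was 17 of 514 (3.31%, 2.08 to 5.23), and in group 10 357 of 514 (69.5%, 65.3 to 73.3). The rise was unbroken from group to group.

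Among peaks with like numbers the difference in length was small or turned round. In group 10 vehicle-only peaks had a median of 136 bp (131 to 141) and shared peaks 141 bp (132 to 153). Medians in group 9 were both 151.5 bp, and in group 5 they were 212 bp (191 to 218) against 208 bp (202 to 214). Among the low numbers the vehicle-only peaks were the longer ones: 294 bp (260 to 330) against 257 bp (249 to 261) in group 3, and 458 bp (395 to 479) against 281 bp (274 to 291) in group 2. The shorter length of the whole class thus went with its high numbers, and the few members with low numbers were longer than the shared peaks numbered like them.

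**Figure D2:**
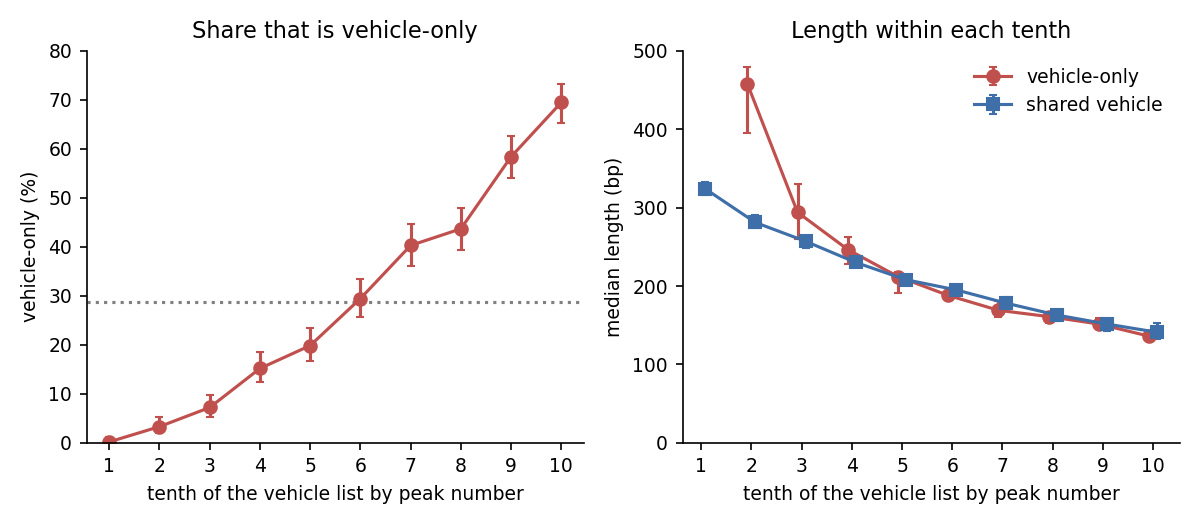
Left, percentage of vehicle peaks that are vehicle-only in 10 equal groups of the vehicle list by deposited peak number, with 95% Wilson intervals and a dotted line at 28.7%; right, median length in bp of vehicle-only and shared peaks in each group, with 95% intervals (the single vehicle-only peak of group 1 is left out). The share rises from 0.195% to 69.5%, and the 2 length curves part only at low numbers.

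The members with the lowest numbers are described singly. The lowest number, 469, belonged to the longest vehicle-only peak, 898 bp at chr1:169942198-169943095. A second vehicle-only peak of 119 bp lay 101 bp from it, 27 estradiol peaks lay within 500 kb, and the nearest of these was 53.1 kb away. Number 542 was 610 bp long, at chr15:36009290-36009899, with another vehicle-only peak of 123 bp at 72 bp and an estradiol-only peak of 285 bp at 583 bp. Both of these long members were thus accompanied by a short member close by.

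Number 622, of 543 bp, lay at chr14:23602338-23602880, 16.3 kb from an estradiol-only peak of 421 bp. Number 632, of 416 bp, lay at chr7:77641902-77642317, 11.4 kb from an estradiol-only peak of 134 bp. Number 684, of 492 bp, lay at chr13:101728189-101728680, 6.82 kb from a shared site and 3.64 kb from another member of 147 bp. None of these 5 members had an estradiol peak within 0.5 kb, and 2 of the 5 had one within 10 kb.

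The 10 longest members held 4 of these 5 and 6 others. One of the others had a high number: 785 bp at chr17:39983221-39984005, number 4787, lay 30 bp from the longest estradiol peak (1817 bp) and 27 bp from the longest vehicle peak (1760 bp). It was the one place among the 10 where 3 very long intervals adjoined, and only 1 estradiol peak lay within 500 kb of it. The member of 480 bp at chr2:92757813-92758292 lay 280 bp from an estradiol-only peak of 209 bp, with its nearest vehicle peak 425 kb away. The remaining 4 lay farther off: 525 bp at chr11:3586656-3587180 (17.6 kb), 479 bp at chr10:83389662-83390140 (14.9 kb), 477 bp at chr5:107596853-107597329 (16.2 kb) and 471 bp at chr6:87515062-87515532 (74.8 kb). In all, 4 of the 10 longest members had an estradiol peak within 10 kb.

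Distance to the estradiol list varied widely. The median gap from a vehicle-only peak to its nearest estradiol peak was 21.0 kb (18.3 to 23.9), with quartiles of 5.41 and 61.0 kb. Shared vehicle peaks had their next estradiol peak, leaving out the ones they overlap, at a median of 10.4 kb (9.33 to 11.5). Within 1 kb lay an estradiol peak for 173 members (11.7%, 10.2 to 13.5), against 19.3% (18.1 to 20.6) of shared peaks. Within 10 kb the shares were 35.8% (33.4 to 38.3) and 49.4% (47.8 to 51.0), and within 100 kb 84.0% and 88.0%. At limits of 0.5 to 100 kb the share was thus lower for vehicle-only than for shared peaks, while within 0.1 kb the shares were 2.10% and 1.99%. The difference in median gap depended on how partial overlaps were counted. With the 50% rule the median gap to the next non-overlapping estradiol peak was 13.1 kb for vehicle-only and 13.2 kb for shared peaks. Under the other changes of rule or list the difference remained. It was 26.1 against 11.8 kb for peaks of at least 150 bp. With peaks under 500 bp apart joined, it was 23.4 against 14.3 kb.

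Moving the members along the chromosome gave a reference that keeps their regional setting. Each member was moved by 25, 50 and 100 kb in both directions, and moved positions that met an estradiol peak (11 to 20 per shift) or passed the end of the lists were left out, as the rule would do. At the moved positions the median gap was 25.3 to 41.1 kb, all above the 21.0 kb in place. It rose with the size of the shift, from 25.3 and 25.8 kb at 25 kb to 41.1 and 39.3 kb at 100 kb. An estradiol peak lay within 1 kb of 2.61% to 3.70% of moved positions, so the 11.7% in place was 3.17 to 4.50 times as high. Within 10 kb the moved shares were 19.5% to 24.5%, against 35.8%. Within 100 kb the moved shares were 79.3% to 84.2%, but a shift of up to 100 kb mostly keeps the same estradiol peaks in reach at that limit. Shifts of 250 to 1000 kb gave 59.3% to 70.9% within 100 kb, against 84.0% in place, and 12.1% to 18.1% within 10 kb. In place, the share was thus 1.18 to 1.42 times that of the far shifts within 100 kb, and 1.98 to 2.97 times within 10 kb. Shared vehicle peaks also exceeded their own moved positions. Their share in place was 4.33 to 6.20 times as high within 1 kb, against shifts of 25 to 100 kb. Within 10 kb it was 2.68 to 4.10 times as high, against shifts of 250 to 1000 kb. Closeness to estradiol peaks was thus not particular to vehicle-only peaks.

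**Figure D3:**
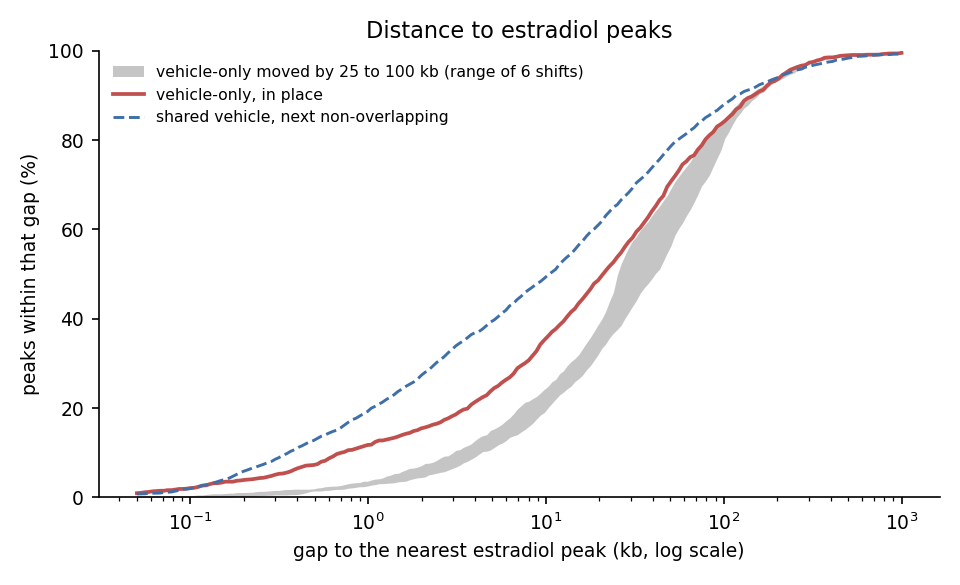
Cumulative percentage of peaks (y axis) with an estradiol peak within a given gap in kb (x axis, log scale), for vehicle-only peaks in place, for the same peaks moved by 25 to 100 kb (grey band, range of 6 shifts) and for shared vehicle peaks to their next non-overlapping estradiol peak. At 1 kb the in-place curve stands at 11.7% and the band at 2.61% to 3.70%, and at 100 kb, the size of the longest shift, the curve lies within the band.

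The density of members over the genome fell steadily with distance from estradiol peaks. Between the outermost estradiol peaks of the autosomes lay 2383 Mb outside those peaks, and 1465 members, or 0.615 per Mb. Positions within 1 kb of an estradiol peak made up 1.28% of this span and held 5.64 members per Mb. The density was 1.75 per Mb at 1 to 10 kb, 1.02 at 10 to 50 kb, 0.590 at 50 to 100 kb and 0.277 at 100 to 500 kb. Beyond 500 kb lay 22.1% of the span and 12 members, or 0.0228 per Mb. Regions poor in estradiol peaks were thus poor in vehicle-only peaks as well. Shared vehicle peaks, placed by their next non-overlapping estradiol peak, went the same way. Within 1 kb lay 19.4% of them against 11.7% of members, and beyond 500 kb 1.64% against 0.819%. The fall with distance was thus not particular to vehicle-only peaks.

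Length varied little with distance to the estradiol list. Members within 1 kb had a median of 167 bp (146 to 174), those at 1 to 10 kb 175 bp (170 to 180), those at 10 to 100 kb 162 bp (158 to 167) and those beyond 100 kb 163.5 bp (155 to 172). The members at 1 to 10 kb were thus longer than those at 10 to 100 kb, with intervals that did not meet. Their median peak numbers differed as well, at 3902 and 4087, and whether length differed among like numbers was not tested. The neighbouring estradiol peak was more often a shared one at short range: for 43.4% (36.2 to 50.8) of members within 1 kb it overlapped some other vehicle peak, against 27.2% (24.0 to 30.6) at 10 to 100 kb and 25.4% (20.3 to 31.3) beyond. Of all autosomal estradiol peaks, 21.3% were shared. The 107 members within 500 bp fell into 47 beside a shared site and 60 beside an estradiol-only peak. The latter are places where each library had a call and the 2 calls did not touch. Estradiol peaks near members had a usual length, with a median of 225 bp (208 to 252) within 1 kb against 242 bp in the whole list.

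Of the 5 members farthest from any estradiol peak, 4 were at most 118 bp long. The first, 100 bp at chr6:77163797-77163896, lay 4232 kb from an estradiol peak and 3965 kb from another vehicle peak. On chromosome 3, members of 118 bp (159574673 to 159574790) and 114 bp (159548330 to 159548443) lay 26.2 kb from each other and 2805 and 2779 kb from the estradiol list. A member of 235 bp at chr14:117522264-117522498 and one of 100 bp at chr1:68121095-68121194 followed, at 1540 and 1517 kb. All 5 had 0 estradiol peaks within 500 kb, which follows from choosing the farthest members. In each case the nearest vehicle peak was vehicle-only too. For the first and for the pair on chromosome 3 the rule fixes this, because that vehicle peak lay nearer than any estradiol peak. Such isolation was rare: 15 members (1.02%) had no estradiol peak within 500 kb, against 61 shared peaks (1.67%) with none besides those they overlap.

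Spacing within the vehicle list did not separate the classes. The gap to the nearest other vehicle peak had a median of 45.7 kb (40.1 to 51.5) for vehicle-only and 46.3 kb (42.5 to 49.7) for shared peaks. The class of that neighbour did separate them. It was vehicle-only for 585 members (39.7%, 37.2 to 42.2) and for 872 shared peaks (23.8%, 22.5 to 25.2), on either side of the 28.7% of the whole list. Among 5118 pairs of successive vehicle peaks, 556 were both vehicle-only, where the list's shares alone would give 421, and 1824 held 1 of each, where they would give 2094. The other 2738 pairs were both shared, where the list's shares would give 2602. Peaks of each class therefore tended to lie next to peaks of their own class. The rule takes class from the estradiol list, so neighbouring vehicle peaks can receive the same class from the same estradiol peaks or from their absence. With peaks under 500 bp apart joined, the shares were 36.6% for members and 24.5% for shared peaks. A tendency apart from the rule was not tested.

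The neighbour pattern was also taken by peak number. In 5 equal groups by number, the share of members whose nearest vehicle peak was vehicle-only ran from 37.1% to 43.1%, and that of shared peaks from 22.8% to 25.3%. The group with the lowest numbers held only 18 members, 7 of them with such a neighbour, and its interval of 20.3% to 61.4% includes the 23.4% of its shared peaks. The neighbours' own numbers, taken in the same groups, would give 31.0% for members and 27.0% for shared peaks. The 39.7% of members thus exceeded what the numbers of their neighbours gave.

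By gap, the pattern had a short-range and a longer-range portion. Where the nearest vehicle peak lay within 500 bp, it was vehicle-only for 85 of 136 members (62.5%, 54.1 to 70.2) and for 16.5% (12.8 to 21.1) of shared peaks. Both ends of such a pair are counted when each is the other's nearest peak. At such gaps neighbouring vehicle peaks can also overlap the same estradiol peak, which makes both shared by the rule. At 25 to 100 kb the shares were still 43.3% (38.8 to 47.9) and 23.2% (20.7 to 26.0). At 100 to 1000 kb they were 29.4% (25.3 to 33.8) and 26.9% (24.5 to 29.5), with intervals that met. Of the 51 members within 500 bp of a shared vehicle peak, 45 also had an estradiol peak within 500 bp. The rule largely entails this, because a shared vehicle peak itself overlaps an estradiol peak.

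**Figure D4:**
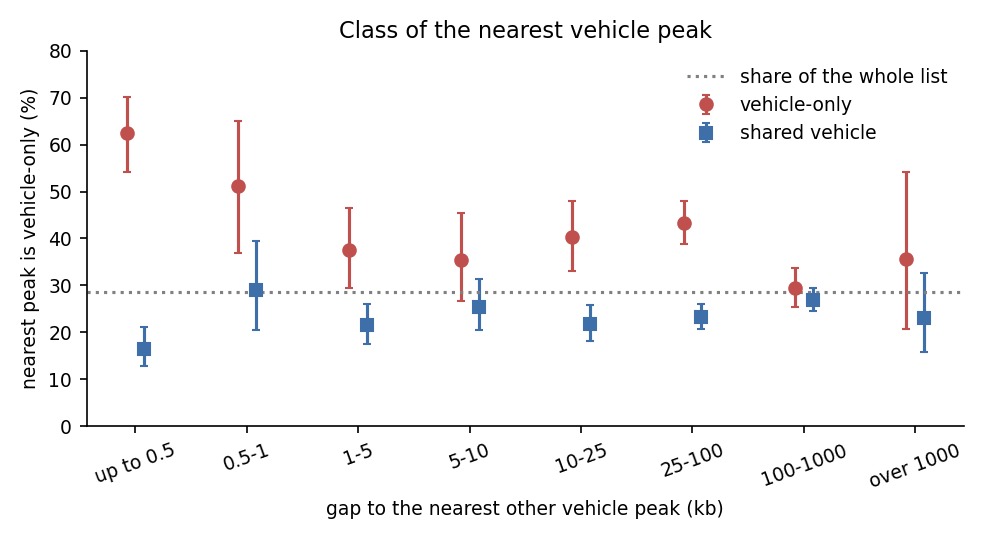
Percentage of vehicle-only and of shared vehicle peaks whose nearest other vehicle peak is vehicle-only (y axis), by the gap to that peak in kb (x axis), with 95% Wilson intervals and a dotted line at 28.7%, the share of the whole list. Vehicle-only peaks stand above shared peaks up to 100 kb, and the intervals meet from 100 kb on and at 0.5 to 1 kb and 5 to 10 kb.

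Some members followed each other with no shared peak and no estradiol peak between them. Such runs of 2 or more numbered 213 and held 485 members (32.9%), while 989 members stood alone. Of the runs, 176 held 2 members, 24 held 3, 8 held 4, 1 held 5 and 4 held 6. Pairs had a median span of 31.7 kb.

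The most compact run of 6 spanned 90.5 kb at chr7:90260581-90351065. Its members were 246, 100, 229, 372, 100 and 185 bp long, and a pair in the middle was 153 bp apart. The nearest estradiol peak was 61.8 kb away at the closer end and 152 kb at the other. The second run covered 216 kb at chr14:23350065-23565626, with lengths of 158, 128, 188, 465, 208 and 328 bp. Estradiol peaks lay 10.8 to 129 kb from its members. The third, 280 kb at chr2:144429015-144709414, had lengths of 140, 131, 198, 162, 337 and 247 bp and estradiol peaks at 57.5 to 303 kb. The lowest numbers in these 3 runs were 1081, 767 and 1316. The remaining run of 6 was spread over 1842 kb at chr13:21871278-23713159, with lengths of 121 to 275 bp and numbers from 2237 to 5083. The run of 5, over 40.0 kb at chr7:91441688-91481716, had numbers from 2103 to 4389.

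Regional density of estradiol peaks was related to the vehicle-only share. A member had a median of 12 estradiol peaks within 500 kb (11 to 13), with quartiles of 7 and 19, against 14 (13 to 14) for a shared peak without its own. With the 50% rule the order turned, to 14 for vehicle-only and 13 for shared peaks. Vehicle peaks were also grouped by this count, which leaves out the estradiol peaks that a shared peak overlaps. Among vehicle peaks with 1 to 4 estradiol peaks so counted, 34.3% (30.7 to 38.1) were vehicle-only, and among those with 30 or more, 20.1% (17.0 to 23.7). The 76 vehicle peaks with none were 15 members and 61 shared peaks with no estradiol peak besides those they overlap. At 19.7% (12.3 to 30.0) they fell outside this order, and their median number of 1740 was lower than the 2494 to 2777 of the other groups. Counted by other vehicle peaks in the same radius, the share was 23.6% (19.5 to 28.2) with none and 33.2% (29.7 to 36.8) with 10 or more. Between these ends it ran from 26.2% to 29.4% with no steady rise. From 1 estradiol peak upward in this count, the vehicle-only part of the list under the 1-bp rule thus shrank as estradiol peaks became denser. The rule uses the same estradiol list, so this describes the rule as well as the region. A relation apart from the rule was not tested.

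Windows of 1 Mb showed where members accumulated. Of 1476 windows with a vehicle peak, 799 held a member, 439 of them exactly 1, and 36 windows with 5 or more held 239 members (16.2%). The window with most was on chromosome 14 between 23 and 24 Mb, with 13 members among 24 vehicle peaks (54.2%, 35.1 to 72.1) and 19 estradiol peaks. Its members were 123 to 543 bp long and ran from number 622 to 4727, and the second run of 6 lies inside it. The distance to the nearest estradiol peak ranged there from 0.053 to 129 kb.

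Chromosome 12 between 80 and 81 Mb held 11 members among 25 vehicle peaks (44.0%, 26.7 to 62.9) beside 41 estradiol peaks. Its members lay close to estradiol peaks, at 0.883 to 18.3 kb, and were 136 to 295 bp long. The remaining window, on chromosome 7 between 80 and 81 Mb, held 10 members among 15 vehicle peaks (66.7%, 41.7 to 84.8) and 23 estradiol peaks, with lengths of 100 to 299 bp. The 3 windows were picked as extremes, which overstates their shares. The members of the first included long, low-numbered peaks, whereas the lowest numbers in the others were 2658 and 2077.

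**Figure D5:**
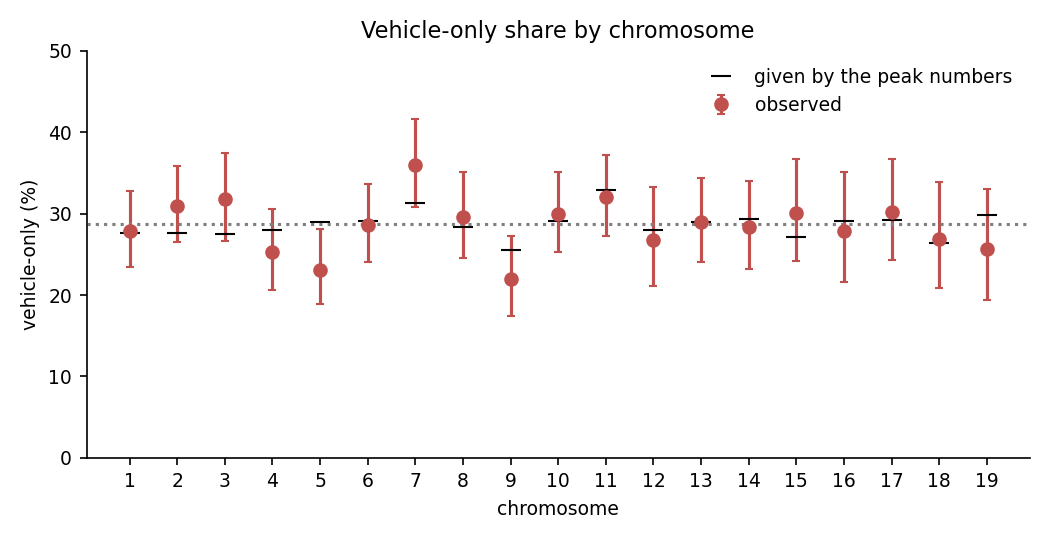
Percentage of vehicle peaks that are vehicle-only on each autosome (points, with 95% Wilson intervals), the percentage that the peak numbers of that chromosome would give (black dashes) and the autosomal share of 28.7% (dotted line). Chromosome 7 is highest at 36.0% and chromosome 9 lowest at 21.9%.

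Chromosomes differed moderately. The vehicle-only share ran from 21.9% (17.4 to 27.3) on chromosome 9, with 59 of 269 peaks, to 36.0% (30.8 to 41.6) on chromosome 7, with 108 of 300. The intervals of 16 of 19 autosomes held 28.7%, the exceptions being chromosomes 5, 7 and 9. The mix of peak numbers on a chromosome would give 31.3% on chromosome 7, 29.0% on chromosome 5 and 25.5% on chromosome 9, so numbers went with a portion of the difference on 7 and 9 and none on 5. Members per Mb ranged from 0.460 on chromosome 12 to 0.885 on chromosome 11, which is also the autosome with most estradiol peaks per Mb (10.8).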

How the data were processed

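Each ERα peak list was deposited by the authors as chromosome, start, end and a numbered peak name, on mm9 per the file headers. The submitters' processing notes name Partek with no role. No source used here gives the aligner, the peak caller, its settings or the use of the input. Positions are printed counted from 1, taking the deposited starts as counted from 0. A gap is the number of base pairs between 2 intervals. Overlap means at least 1 shared bp. Counts within a radius use midpoints, and counts of estradiol peaks leave out those that the vehicle peak overlaps. Shares carry Wilson intervals and medians exact order-statistic intervals (95%), computed in Python 3.11.15 with numpy 2.4.6, pandas 2.3.3 and scipy 1.17.1. Counting was tested on simulated data. The autosomal vehicle peaks were divided by deposited number into 10 equal groups (5 for neighbours), and the share that numbers give is the mean over peaks of the vehicle-only share of their group. Alternatives changed the overlap rule, chromosomes, lengths, numbers, joining, distance limit, radius and shifts.

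The regions named are the 10 longest members, the 5 nearest to and 5 farthest from an estradiol peak, the 5 with the lowest number, the 3 runs with most members (ties by shorter span, which left out 1 of 4 runs of 6) and the 3 windows with most members. The members and rules were chosen with earlier results of these data known. Gene positions and sequence features were not analysed here, because the reference at hand is on GRCm38 and coordinates were not moved between builds.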

Additional observations from a re-analysis of the deposited data

How the results depend on the processing

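Of 70 values recomputed under alternatives, 36 stayed within the interval of the value reported (counts within 1.5 times) and 34 moved. Counting only overlaps of at least 50% of both peaks as shared gave 2243 members, a median gap of 4.94 kb (0 for partial overlaps), 57.8% within 10 kb, 48.6% with a vehicle-only nearest vehicle peak and 14 estradiol peaks within 500 kb. Requiring a gap of 500 bp gave a median gap of 25.0 kb and 30.8% within 10 kb. Peaks of at least 150 bp in both lists gave a median length of 192.5 bp, gaps of 26.1 kb to estradiol and 58.2 kb to vehicle peaks, 32.3% within 10 kb and 10 estradiol peaks within 500 kb. The same limit on the vehicle list alone gave 916 members, 192 bp, 51.6 kb to vehicle peaks and 33.7% with a vehicle-only neighbour. Vehicle numbers up to 2592 gave 235 members, 242 bp, 81.4 kb, 19.6% and 10 estradiol peaks, and the numbers above gave 156 bp, 95.2 kb and 53.2%. In these subsets the shared peaks' own neighbour share was 8.24% and 43.7%, lower than the members' in each. Joining peaks under 500 bp apart gave 33.1% within 10 kb, 54.8 kb to vehicle peaks and 36.6%. Limits of 1, 5, 25 and 100 kb gave 11.7%, 24.2%, 53.7% and 84.0%, and radii of 100 and 1000 kb medians of 3 and 22 estradiol peaks. The mean share within 10 kb at moved positions, 22.2%, was 15.1% with shifts of 250 to 1000 kb. Adding chromosome X, or leaving out the window with the longest peak of each list, moved none of the 7 results. The upper-numbered subset and the limit on the vehicle list alone were chosen after seeing the data. Alternatives on genes and motifs were not run for lack of an mm9 reference, and with 1 library per condition no replicate could be left out. Unknown read depth limits every statement that a site lacked a peak.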

Other observations

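Chromosome X, left out by the rule, held 12 vehicle-only peaks among 47 vehicle peaks (25.5%, 15.3 to 39.5). Members lay nearer to the estradiol peak on the lower-coordinate side in 51.1% of 1465 cases. Among the 1465 members between 2 estradiol peaks, the interval that held a member had a median width of 152 kb, and 79 members had an estradiol peak within 10 kb on both sides. Among vehicle peaks of 400 bp or more, the 27 vehicle-only ones lay a median of 14.9 kb from an estradiol peak, against 4.49 kb from the next one for the 269 shared peaks.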
